A study of Mus musculus with 3 samples.

Results

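Hox genes are the homeobox genes of the Hoxa, Hoxb, Hoxc and Hoxd clusters. Here they are described in blood stem cells, by cluster and by paralogue number, the position that a gene shares with its relatives in the other clusters. Members were taken by symbol from probe sets that the platform annotation assigns to 1 gene, with no use of their values, which gave 37 of the 39 Hox genes in the reference gene table, out of 19938 genes measured. Each of the 37 had a single probe set. The other Hox genes are not analysed here. Members, and the gene lists set beside them, were chosen with earlier results of these data known. The Hoxa cluster, on chromosome 6, had 10 members. The Hoxb, Hoxc and Hoxd clusters, on chromosomes 11, 15 and 2, had 9 each.

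The samples were 3 arrays of wild-type bone marrow cells from C57Bl/6 mice of 6 to 10 weeks, with no treatment named. They are numbered 1, 2 and 3 as in their titles. The cells carried the KLS SLAM surface pattern: no lineage markers, c-Kit and Sca-1 present, CD150 present, CD48 and CD41 absent. This gate enriches for long-term repopulating haematopoietic stem cells. There is 1 group and hence no contrast. The labels do not say whether the arrays came from separate animals, so the spread between them may be technical. The p-values ask only whether a gene's spread over these arrays exceeds that of other genes of like mean level.

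Hox proteins bind DNA through the homeodomain and act with partner proteins of the TALE class, such as the Pbx and Meis factors. In the embryo the genes of a cluster are switched on in their chromosomal order, and this order sets position along the body axis. In blood, genes of the Hoxa and Hoxb clusters are known for activity in stem and progenitor cells: Hoxb4 and Hoxa9 promote the expansion of such cells, and Hoxa9 together with Meis1 drives leukaemia. Activity of the clusters is maintained by MLL (Kmt2a) and repressed by Polycomb complexes.

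Values are log2 of the deposited intensities. Probe sets bind their targets with unequal strength, so a gene's value was set against a background limit of its own array and not against another gene's value. The limit was the 95th percentile of 1217 olfactory, vomeronasal and taste receptor genes, which marrow cells are not known to use, and it stood at 6.30 on array 1, 5.98 on array 2 and 5.77 on array 3. A gene above it on all 3 arrays is called above the background range. Of all 19938 genes 7328, or 36.8%, were above it. A value below the limit does not show that a gene is silent.

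The sort and its purity were checked on marker genes. Kit and Slamf1 (CD150) were above the range, as were all 7 measured stem cell markers, among them Procr, Mecom, Hlf and Gata2. Slamf1 and the stem cell markers Tek and Fgd5 were close to the limit of 6.30 on array 1, at 6.41, 6.45 and 6.40. Itga2b (CD41), which the sort excluded, was just above it at 6.51, 6.36 and 6.24 on arrays 1, 2 and 3, and Cd48 passed the limit on array 3 alone. Of the granulocyte markers 6 of 7 were above the range, with medians in array order of 8.39, 9.39 and 9.55. Their summed linear intensity was 8928, 14990 and 13833, beside 3257.5, 3962.5 and 3490.3 for the 7 stem cell markers. S100a8, S100a9 and Ngp were at 12.08 ± 0.31, 12.37 ± 0.38 and 10.26 ± 0.96 (SD, n = 3), and Elane missed the limit on array 1. Of the stromal and endothelial markers 3 of 5 were above it. Col1a1 was at 6.91, 6.76 and 6.55 on arrays 1, 2 and 3, Cxcl12 at 6.48, 6.62 and 6.02 and Pecam1 at 6.75, 6.02 and 6.83, while Cdh5 and Lepr were under each limit. For monocytes it was 1 of 4, with Lyz2 at 9.61 ± 0.61. For megakaryocytes it was 2 of 3, for erythroid cells 0 of 3, for B cells 0 of 3 and for T and NK cells 0 of 4. The part of such cells in the Hox values was not tested. In a bulk sample, fewer cells that use a gene and less RNA per cell cannot be told apart.

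Hox genes with signal above the background range belonged to the Hoxa and Hoxb clusters, apart from Hoxd10. Of the 37 Hox genes, 11 were above it, or 29.7% beside the 36.8% of all genes, so the family as a whole lay close to the background share. In the Hoxa cluster the count was 6 of 10, in Hoxb 4 of 9, in Hoxc 0 of 9 and in Hoxd 1 of 9. The Hoxb share, 44.4%, is near that of all genes. By array, 11 Hox genes passed the limit on array 1 and 14 on each of arrays 2 and 3. Of all genes 39.2%, 49.1% and 55.2% passed it on arrays 1, 2 and 3, as the limit itself was lower on arrays 2 and 3. The 3 genes above the limit on arrays 2 and 3 but not on array 1 were Hoxa3, Hoxb5 and Hoxc9. The other 23 were below it on every array. Medians over the genes of a cluster were 6.83, 6.90 and 6.64 on arrays 1, 2 and 3 for Hoxa, and 6.02, 6.53 and 6.26 for Hoxb. They were 4.98, 5.22 and 5.02 for Hoxc and 5.35, 5.50 and 5.07 for Hoxd, beside 5.96, 5.95 and 5.94 over all genes. These medians mix probes of unequal strength and only describe the clusters.

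**Figure D1:**
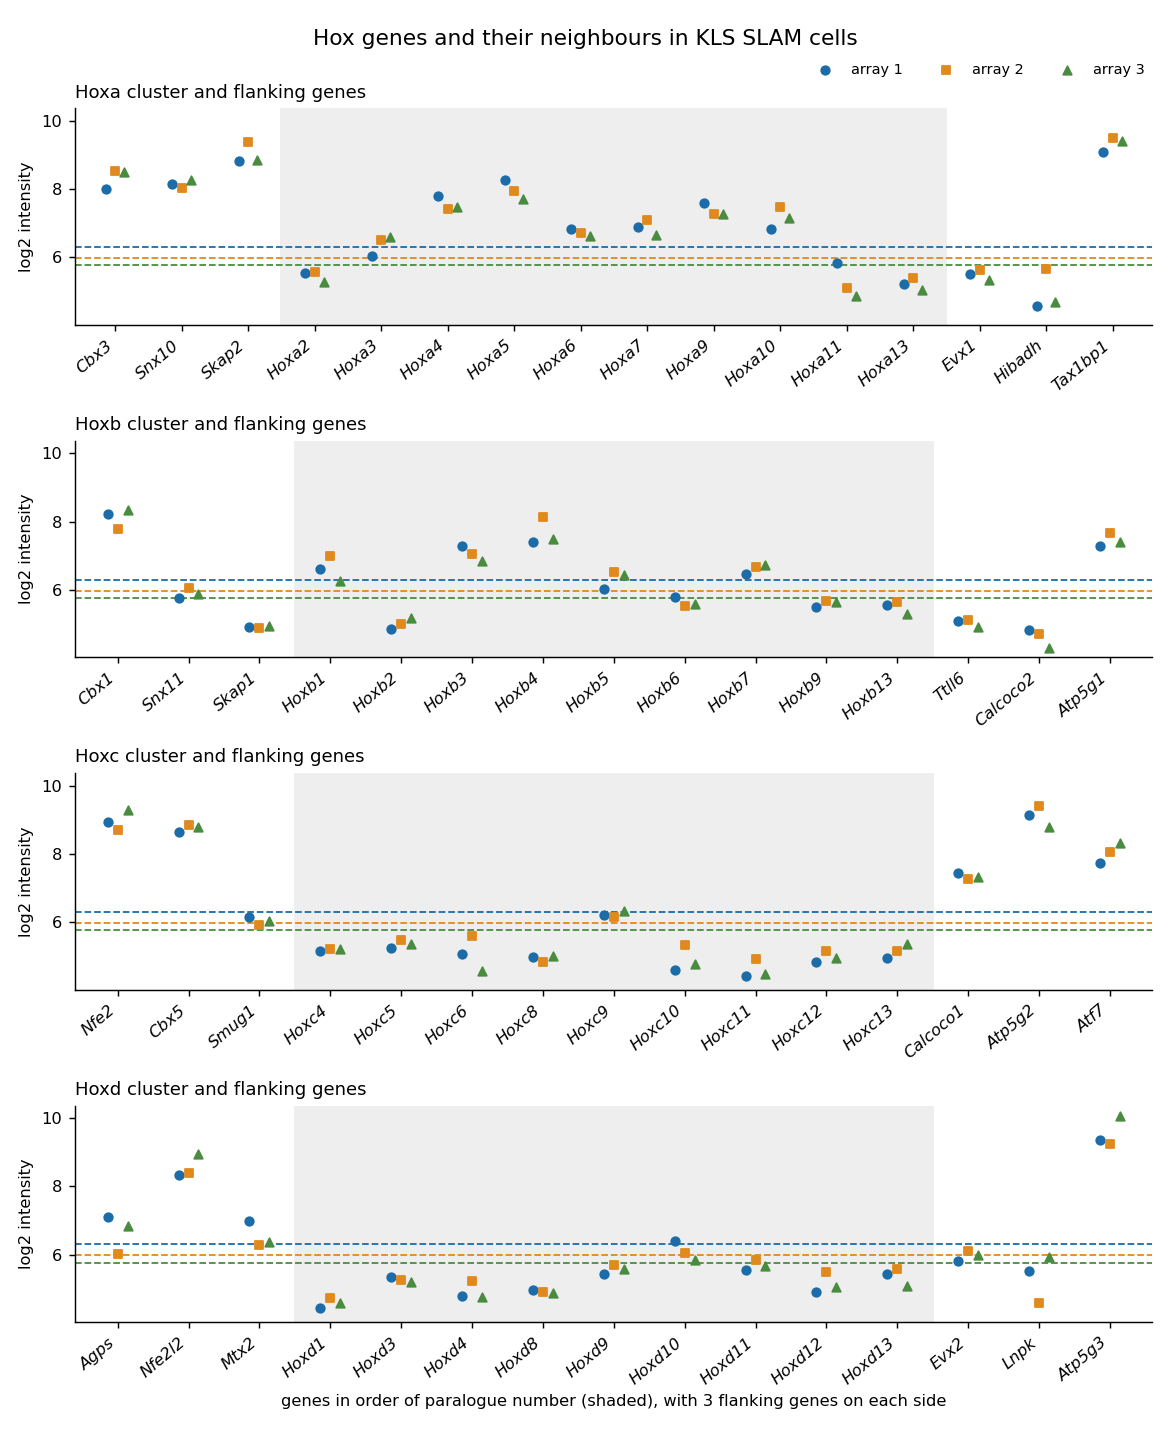
Log2 intensity of each Hox gene (shaded, in order of paralogue number) and of 3 flanking genes on each side, 1 panel per cluster. Points are the 3 arrays, and the dashed line of the same colour is the background limit of that array. From Hoxa4 to Hoxa10 all points lie above their limits, whereas in the Hoxc panel Hoxc9 is the only shaded gene with points above them.

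Within the Hoxa cluster the genes above the range formed an unbroken run of measured neighbours, from Hoxa4 to Hoxa10, between members that were not. Hoxa4, of the middle of the cluster, was at 7.80, 7.40 and 7.47 log2 on arrays 1, 2 and 3, or 7.56 ± 0.21 (SD, n = 3). Hoxa5, a factor of lung and blood cell development, was at 8.26, 7.95 and 7.72 (7.98 ± 0.28). Its distance from the limit was almost the same on each array, at 1.97, 1.97 and 1.95 log2. Hoxa6 was nearer to the limit, at 6.84, 6.70 and 6.62 (6.72 ± 0.11), and Hoxa7 was at 6.88, 7.10 and 6.66 (6.88 ± 0.22). Both passed the limit of every array by at least 0.54 log2.

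Hoxa9 and Hoxa10, the posterior genes of the run, are the members of this cluster best known for their role in leukaemia. Hoxa9 was at 7.59, 7.27 and 7.26 on arrays 1, 2 and 3 (7.37 ± 0.19, SD, n = 3), and at least 1.29 log2 above each limit. Hoxa10 was at 6.83, 7.48 and 7.14 (7.15 ± 0.33), with array 1 lowest. It passed the limit by 0.53 log2 on array 1 and by 1.37 on array 3, with array 2 higher still.

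The Hoxa members on both sides of this run were lower against their limits. Hoxa3, a regulator of pharyngeal development, missed the limit of array 1 by 0.26 log2 at 6.04 and passed those of arrays 2 and 3 at 6.52 and 6.61. Hoxa2, which patterns the hindbrain, was at 5.55, 5.56 and 5.27. The limb and genital tract genes Hoxa11 and Hoxa13 were at 5.84, 5.11 and 4.86 and at 5.22, 5.39 and 5.05. All of these values of Hoxa2, Hoxa11 and Hoxa13 lay below the limit of their array.

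In the Hoxb cluster the genes above the range were Hoxb1, Hoxb3, Hoxb4 and Hoxb7, with members below the limit between them. Hoxb4, which expands stem cells when overexpressed, was at 7.39, 8.14 and 7.50 on arrays 1, 2 and 3 (7.68 ± 0.41, SD, n = 3), with array 2 apart from the other two. Its neighbour Hoxb3 was at 7.29, 7.05 and 6.83 (7.06 ± 0.23), and about 1 log2 above the limit on every array, from 0.99 to 1.08. These genes share a stretch of the locus, since the reference Hoxb3 gene spans Hoxb4.

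Hoxb1 and Hoxb7 stood closer to the limit. Hoxb1, the hindbrain gene at the anterior end, was at 6.60, 7.00 and 6.26 (6.62 ± 0.37, SD, n = 3), and Hoxb7 at 6.45, 6.67 and 6.71 (6.61 ± 0.14). On array 1 the distance was 0.30 log2 for Hoxb1 and 0.15 for Hoxb7. Hoxb5, known as a marker of long-term stem cells in mouse marrow, missed the limit of array 1 at 6.02 and passed the others at 6.53 and 6.43. Hoxb6 was at 5.78, 5.53 and 5.59, below the limit of each array although its neighbours Hoxb5 and Hoxb7 passed 2 and 3 of them. Hoxb2 was at 4.86, 4.98 and 5.17, and Hoxb9 and Hoxb13 at 5.60 ± 0.09 and 5.49 ± 0.19, all of them below each limit.

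No Hoxc gene was above the range. Hoxc9 came nearest: it was at 6.22, 6.15 and 6.33 on arrays 1, 2 and 3, short of the limit of array 1 by 0.08 log2 and above those of arrays 2 and 3 by 0.18 and 0.56. The other 8 Hoxc genes were below the limit on every array. Hoxc4, which belongs to the same paralogue group as Hoxa4 and Hoxb4, was at 5.16, 5.22 and 5.22, and its SD of 0.03 was the smallest of the 37 genes. Hoxc5, Hoxc6 and Hoxc8 had means of 5.36 ± 0.11, 5.08 ± 0.52 and 4.94 ± 0.10 (SD, n = 3). The posterior members Hoxc10, Hoxc11, Hoxc12 and Hoxc13 were at 4.90 ± 0.39, 4.62 ± 0.26, 4.98 ± 0.16 and 5.16 ± 0.22.

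Of the Hoxd genes, which pattern limb and trunk, Hoxd10 alone was above the range, and by little. It was at 6.41, 6.06 and 5.85 on arrays 1, 2 and 3, which is 0.11, 0.08 and 0.08 log2 above the limits, and between 46 and 54 receptor genes were brighter on each array. For comparison, 1 or 2 receptor genes were brighter than Hoxa5. The neighbour Hoxd11 was at 5.54, 5.85 and 5.68 and missed the limit on arrays 2 and 3 by 0.13 and 0.09. Hoxd9, Hoxd12 and Hoxd13 were at 5.57 ± 0.12, 5.15 ± 0.31 and 5.36 ± 0.26 (SD, n = 3). The anterior and central members Hoxd1, Hoxd3, Hoxd4 and Hoxd8 were at 4.59 ± 0.14, 5.27 ± 0.07, 4.93 ± 0.26 and 4.92 ± 0.04.

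**Figure D2:**
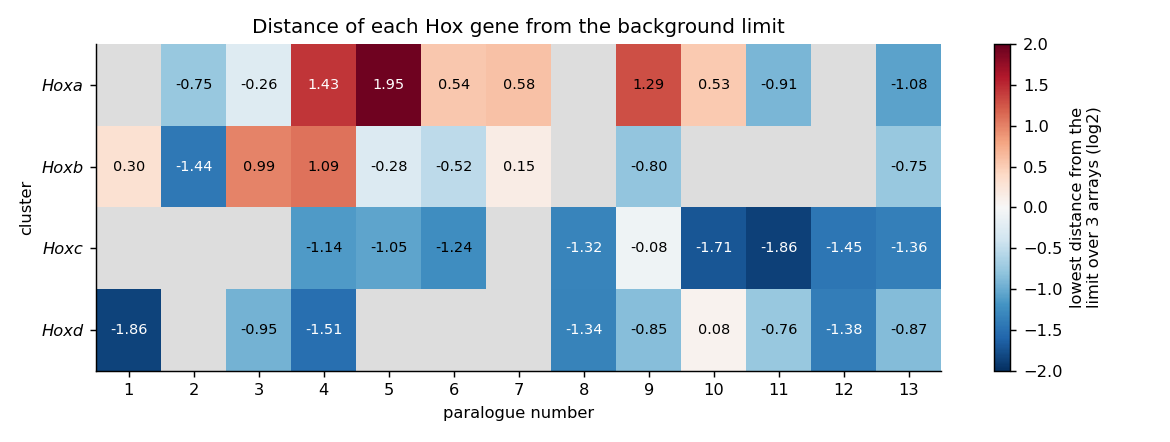
Distance of each Hox gene from the background limit (log2), as the lowest of its 3 arrays, by cluster (rows) and paralogue number (columns). Red is above the limit on every array and blue below it on at least 1, and grey cells hold no measured gene. The Hoxa row is red in each measured cell from 4 to 10, Hoxa5 stands at 1.95, and the Hoxc row holds no red cell.

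By paralogue number, genes above the range were found in groups 1, 3 to 7, 9 and 10. In groups 2, 8, 11, 12 and 13 none of the 13 measured genes was above it. Of the anterior genes, numbers 1 to 3, 2 of 7 were above the range, of the central genes, 4 to 8, 6 of 14, and of the posterior genes, 9 to 13, 3 of 16. These are 28.6%, 42.9% and 18.8%, and the first and second lie near the 36.8% of all genes. Cluster divided the central genes further: 4 of 4 in Hoxa and 2 of 4 in Hoxb were above the range, against 0 of 4 in Hoxc and 0 of 2 in Hoxd. In paralogue group 4, Hoxa4 and Hoxb4 were above it and Hoxc4 and Hoxd4 below the limit on every array. In group 9, Hoxa9 was above it, Hoxc9 missed it on array 1, and Hoxb9 and Hoxd9 were below the limit on every array. Group 7, with Hoxa7 and Hoxb7, was the only one with every measured member above the range. It has only these 2 measured genes, Hoxb7 passed the limit of array 1 by 0.15 log2, and neither gene passed the stricter limits described below. The clusters and position classes were not tested against each other.

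The counts depended on the genes that set the limit, and 4 members stayed above each limit tried. With the 99th percentile of the receptor genes 5 of 37 Hox genes were above the range, beside 17.3% of all genes: Hoxa4, Hoxa5, Hoxa9, Hoxb3 and Hoxb4. The same 5 passed a limit set by 54 other homeobox genes of the ANTP class, which holds the Hox genes and their nearest relatives. That limit was chosen after the values were seen, and 17.8% of all genes passed it. With keratin-associated protein, beta-defensin and placental prolactin-family genes as the limit, Hoxb3 dropped out and 4 remained, beside 14.5% of all genes. Hoxa6, Hoxa7, Hoxa10, Hoxb1, Hoxb7 and Hoxd10 passed none of these 3 stricter limits on all arrays. With the 90th percentile 14 of 37 passed, with Hoxa3, Hoxb5 and Hoxc9 added, beside 50.6% of all genes, and without array 1 the count was 14 with the same additions, beside 46.8%.

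**Figure D3:**
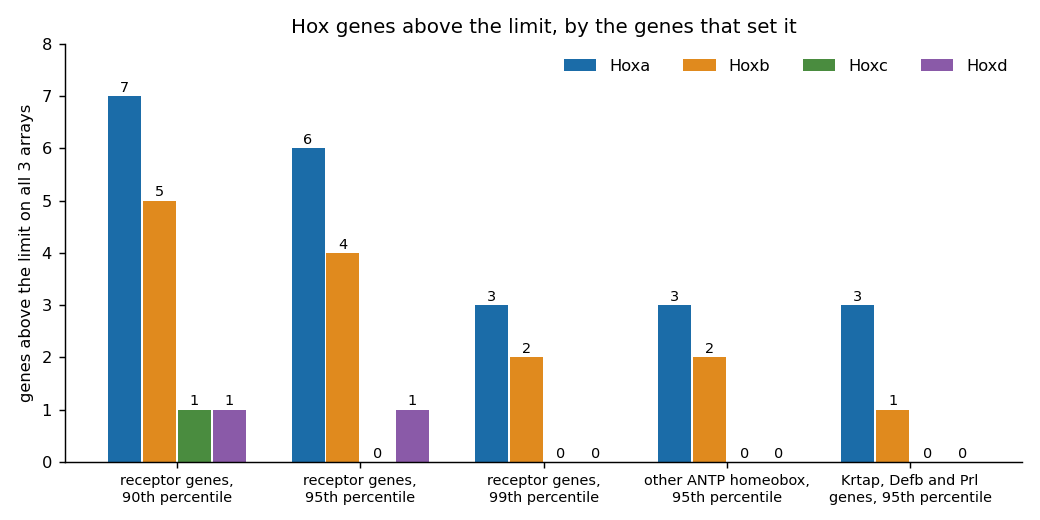
Number of Hox genes above the limit on all 3 arrays in each cluster (bars), for 5 choices of the genes and the percentile that set the limit. The counts for Hoxa run from 7 to 3 and those for Hoxb from 5 to 1, while Hoxc and Hoxd have at most 1 gene under each choice.

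Relatives of the Hox genes that act mainly in other tissues had a share above the range on all 3 arrays not far from that of the Hox family. Of the 54 measured ANTP-class homeobox genes outside the clusters, 11 were above it, or 20.4% beside 36.8% of all genes. By array, 12, 29 and 29 of the 54 passed the limits of arrays 1, 2 and 3, beside 11, 14 and 14 of the 37 Hox genes. Of all genes 39.2%, 49.1% and 55.2% passed them. Averaged over the arrays, the median of the 54 was 6.00, beside 5.51 for the Hox genes and 4.25 for the receptor genes that set the limit. Hhex, a factor of blood and endothelial progenitors, was at 9.05, 9.52 and 9.48 on arrays 1, 2 and 3. Hlx and Nkx2-3, of blood and spleen, were at 6.05 ± 0.12 and 6.01 ± 0.06 (SD, n = 3), above the limits of 2 arrays and 1 array. Hmx2, Emx1 and Nkx2-5, which act in the inner ear, the forebrain and the heart and were picked after their values were seen, were above the range at 7.16 ± 0.17, 6.91 ± 0.18 and 6.74 ± 0.28. Within the distribution of these 54 genes, and with probe strength not accounted for, 1 gene lay above Hoxa4, Hoxa5, Hoxa9, Hoxa10, Hoxb3 or Hoxb4 on all arrays, 3 above Hoxa6, Hoxb1 or Hoxb7, and 9 above Hoxd10.

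**Figure D4:**
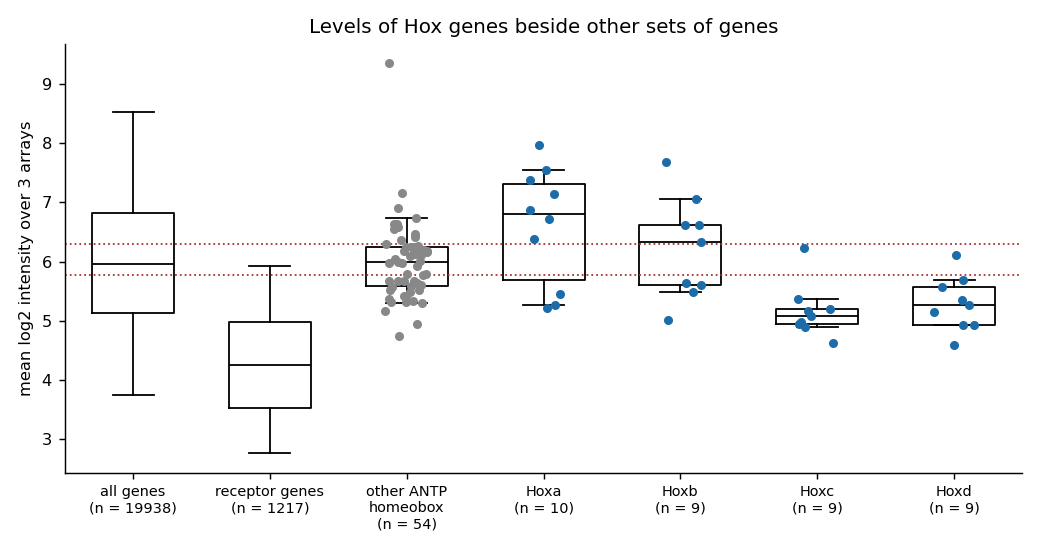
Mean log2 intensity over the 3 arrays for all genes, the receptor genes that set the limit, other ANTP-class homeobox genes and each Hox cluster. Boxes give the median and quartiles, whiskers the 5th and 95th percentiles, points single genes, and the dotted lines the lowest and highest of the 3 limits (5.77 and 6.30). Hoxa and Hoxb genes reach above the lines, and most Hoxc and Hoxd points lie below both.

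Variation between the arrays could be tested only with little power, since each variance rests on 3 values. A one-sided F test set the variance over the 3 arrays against a trend over all genes fitted with limma. In it 0 of 37 had a Benjamini-Hochberg adjusted p under 0.05, beside 0% of the 19938 genes tested. Without adjustment 0 of the Hox genes and 1017 of all genes had a p under 0.05. The trend was fitted to these same genes and arrays, so the number of all genes under 0.05 is largely set by the fit. As no gene of the whole table passed, these counts do not show that Hox genes were stable. The median SD of a Hox gene was 0.19 log2, and that of all genes was 0.22. The widest spreads were those of Hoxc6, at 5.06, 5.61 and 4.57 on arrays 1, 2 and 3, and of Hoxa11. Each had an SD 2.39 times the trend (F test, adjusted p = 0.973 for both). Both genes lay below all limits. Among the 11 genes above the range, the SD ran from 0.11 for Hoxa6 to 0.41 for Hoxb4.

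The order of the arrays was uneven among Hox genes, a description that was not tested. Array 2 held the highest value of 20 of the 37, or 54.1%, beside 38.6% of all genes. For the 26 Hox genes not above the range it held 16. Among the 11 above it, array 3 was lowest for 7, or 63.6%, while among all 7328 genes above the range it was lowest for 27.7% and highest for 40.6%. Hoxa5, Hoxa6, Hoxa7, Hoxa9, Hoxb1, Hoxb3 and Hoxd10 were the 7. The median deviation of array 3 from the gene mean was -0.18 log2 for those 11 Hox genes and 0.05 for all genes above the range. The limit was 6.30 on array 1 and 5.77 on array 3, so a gene near it passes more easily when array 1 is its highest. The order of the arrays within a set chosen by the limit is thus partly fixed by that choice.

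To set the clusters beside their surroundings, the 3 nearest measured protein-coding genes on each side of each cluster gave 24 flanking genes, of which 15, or 62.5%, were above the range, beside 36.8% of all genes. By cluster the share ran from 33.3% around Hoxb, where 44.4% of the Hox genes were above it, to 83.3% around Hoxc. The difference between flanking and Hox genes was not tested. Around Hoxc, where 0 of 9 members were above it, 5 of 6 flanking genes were: Calcoco1, the ATP synthase subunit gene Atp5g2, the transcription factor genes Atf7 and Nfe2, and the heterochromatin protein gene Cbx5. Nfe2, known for its role in platelet formation, was at 8.98 ± 0.31 (SD, n = 3). Smug1, a DNA repair enzyme gene next to Hoxc4, passed the limit of array 3 alone at 6.03 ± 0.12.

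The flanks of Hoxa and Hoxd each had 4 of 6 genes above the range. Beside Hoxa these were the adaptor gene Skap2 at 9.02 ± 0.31 (SD, n = 3), Snx10, Cbx3 and Tax1bp1, and beyond Hoxa13 the homeobox gene Evx1 and Hibadh were below the limit on all arrays at 5.49 ± 0.13 and 4.97 ± 0.59. Beside Hoxd they were Mtx2, Nfe2l2, Agps and Atp5g3. Evx2, next to Hoxd13, passed the limits of arrays 2 and 3 at 6.12 and 6.00, and Lnpk passed that of array 3 alone. Nfe2l2, the oxidative stress regulator, was at 8.56 ± 0.35.

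Around Hoxb 2 of 6 flanking genes were above the range, the ATP synthase gene Atp5g1 at 7.44 ± 0.20 and the heterochromatin gene Cbx1 at 8.11 ± 0.30 (SD, n = 3). Skap1, the relative of Skap2 at the Hoxb locus, stayed below all limits at 4.91 ± 0.03. Ttll6 and Calcoco2 were also below it on all 3, at 5.04 ± 0.13 and 4.61 ± 0.28. Snx11 passed 2 of the limits at 5.89 ± 0.14.

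Reference promoters show the sequence at the start of members above the background range and of others not above it. RefSeq windows of 300 bases on GRCm38.p6, from 250 before to 50 after a start site, were matched by symbol for 21 of the 37 genes, with 23 windows. The 4 below are of Hoxa5, Hoxa9 and Hoxb4, which stayed above each limit tried, and of Hoxc4, a member of paralogue group 4 that was below the limit on every array. They are written 5′ to 3′ on the gene's strand. Capitals mark matches on either strand to any of 6 motifs: CCAAT, the E-box CACGTG, the TATA box TATAAA, the GC box GGGCGG, the retinoid receptor half-site AGGTCA, and the PBX-HOX site TGATNNAT. No matches overlapped in these windows.
Hoxa5, chr6:52204538-52204837, minus strand: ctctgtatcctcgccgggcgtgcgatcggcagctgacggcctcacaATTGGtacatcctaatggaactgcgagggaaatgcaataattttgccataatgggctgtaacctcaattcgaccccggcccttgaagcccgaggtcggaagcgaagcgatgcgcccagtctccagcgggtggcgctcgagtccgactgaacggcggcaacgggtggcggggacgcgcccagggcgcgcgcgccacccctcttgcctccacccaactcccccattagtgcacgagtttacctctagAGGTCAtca
Hoxa9, chr6:52227321-52227620, minus strand: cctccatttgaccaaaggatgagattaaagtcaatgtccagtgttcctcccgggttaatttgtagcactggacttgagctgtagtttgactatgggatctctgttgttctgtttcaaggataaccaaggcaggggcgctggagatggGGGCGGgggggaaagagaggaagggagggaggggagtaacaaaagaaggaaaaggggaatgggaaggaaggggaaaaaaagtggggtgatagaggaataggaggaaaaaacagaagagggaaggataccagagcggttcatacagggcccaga
Hoxb4, chr11:96318017-96318316, plus strand: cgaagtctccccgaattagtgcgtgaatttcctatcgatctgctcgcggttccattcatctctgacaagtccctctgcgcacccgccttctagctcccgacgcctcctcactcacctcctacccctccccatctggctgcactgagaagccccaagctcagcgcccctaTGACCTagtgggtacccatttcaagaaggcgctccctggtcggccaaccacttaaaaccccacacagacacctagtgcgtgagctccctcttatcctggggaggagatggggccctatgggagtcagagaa
Hoxc4, chr15:103034145-103034444, plus strand: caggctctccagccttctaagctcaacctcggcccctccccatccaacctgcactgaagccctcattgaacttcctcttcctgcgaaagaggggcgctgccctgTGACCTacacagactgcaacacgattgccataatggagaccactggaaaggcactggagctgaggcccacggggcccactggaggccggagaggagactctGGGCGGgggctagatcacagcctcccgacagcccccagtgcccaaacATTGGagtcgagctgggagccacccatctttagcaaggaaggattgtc
Counted from the start site, the retinoid half-site began at position -81 in Hoxb4, -146 in Hoxc4 and 41 in Hoxa5. The Hoxa9 window held none, and of the 3 genes with a match Hoxc4 was not above the range. The count of CpG dinucleotides was 29 for Hoxa5, 4 for Hoxa9, 14 for Hoxb4 and 9 for Hoxc4. A match is a description of letters, and says nothing on whether a factor binds.

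Of the 23 windows 10 were of Hoxa and 10 of Hoxd genes, with 2 of Hoxb and 1 of Hoxc, so that what follows rests mostly on the Hoxa and Hoxd clusters. In CpG count the windows of genes above the range overlapped those of the others. The median was 15 CpG in the Hox windows and 7 in all 32851 windows, and Hoxa9, Hoxd4 and Hoxd11 had windows with 4. It was 14 in the 9 windows of genes above the range, with 4 to 29, and 17.5 in the 14 windows of the other genes, with 4 to 45. CCAAT was found in 5 of the 9 and 9 of the 14, beside 37.4% of all windows, and the retinoid half-site in 3 of the 9 and 4 of the 14, beside 16.3%. The E-box was in 0 of 10 Hoxa windows and 5 of 10 Hoxd windows, beside 7.15% of all. The TATA box was in 3 of the 23 windows, the GC box in 9 and the PBX-HOX site in 3, beside 13.6%, 35.7% and 8.85% of all windows. These shares are given without a test.

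Non-coding genes inside the clusters had 9 measured members on a list of 16, and 1 was above the range, or 11.1% beside 36.8% of all genes. Hottip, beyond Hoxa13, and Hoxaas2 and Hoxd3os1 were below the limit on every array, at 5.33 ± 0.14, 5.77 ± 0.19 and 5.50 ± 0.16 (SD, n = 3). Antisense genes overlap their neighbours, and whether the probe sets separate strands is not given in the sources used here. The other 6 are microRNA genes, shown here with the mature strand named 5p, from RefSeq on GRCm38.p6, with the seed (bases 2 to 8) in capitals. They fall into a miR-10 family and a miR-196 family, each with a shared seed, and miR-615.
miR-10a-5p, Hoxb cluster: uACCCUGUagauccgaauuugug
miR-10b-5p, Hoxd cluster: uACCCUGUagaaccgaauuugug
miR-196a-5p, Hoxb and Hoxc clusters: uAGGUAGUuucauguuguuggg
miR-196b-5p, Hoxa cluster: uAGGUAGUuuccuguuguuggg
miR-615-5p, Hoxc cluster: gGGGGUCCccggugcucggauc
The probe sets named for these genes read amplified total RNA, so a value is not the level of the mature strand. Mir615, which lies inside Hoxc5, was the one above the range at 7.61, 7.80 and 7.55 on arrays 1, 2 and 3, while Hoxc5 itself was below each limit at 5.25, 5.47 and 5.36. Of the 22 bases of miR-615-5p 17 are G or C, against 9 to 10 of the 22 or 23 in the other 4, and the part of base composition in these values was not tested. Mir196b, between Hoxa9 and Hoxa10, was at 6.02, 6.00 and 5.90 and passed the limits of arrays 2 and 3. Mir196a-1 and Mir196a-2 were below the limit on all arrays at 5.52 ± 0.16 and 4.55 ± 0.52, as were Mir10a at 2.86 ± 0.28 and Mir10b at 3.18 ± 0.33.

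Among partners and regulators of Hox genes, the MLL and Polycomb genes were mostly above the range, and the Cdx and retinoic acid genes mostly not. Of the TALE cofactors 4 of 8 were above it: Meis1 at 10.16, 10.43 and 10.50 on arrays 1, 2 and 3, Meis3 at 6.60 ± 0.20, Pbx2 at 7.17 ± 0.11 and Pbx4 at 6.75 ± 0.17 (SD, n = 3). Meis2, Pknox1, Pknox2 and Pbx3 were below the limit on all arrays. Of the MLL and elongation complex genes, which keep Hox loci active, 12 of 14 were above it, or 85.7% beside 36.8% of all genes. Kmt2a, the methyltransferase itself, was at 9.68, 9.25 and 9.22, Men1 at 7.05 ± 0.48 and Psip1 at 9.12 ± 0.51. Wdr5 missed the limit on array 2 alone and Mllt1 on array 1 alone.

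Repressors of the clusters showed a similar share. Of 18 measured Polycomb genes 14 were above the range, or 77.8%, with Bmi1 at 7.56 ± 0.71, Ezh2 at 8.51 ± 0.78 and Suz12 at 8.52 ± 0.24 (SD, n = 3). Phf19 missed the limits of all 3 arrays, Cbx8 those of arrays 1 and 2, and Eed and Pcgf2 that of array 1. Of the Cdx genes, which induce Hox genes in the embryo, 0 of 3 was above the range, with Cdx1 past the limits of arrays 2 and 3 at 6.36 ± 0.14 and Cdx2 and Cdx4 below all of them at 5.62 ± 0.15 and 2.83 ± 0.01. Of the 14 retinoic acid genes 1 was above it, the retinal dehydrogenase gene Aldh1a1, at 6.58, 6.93 and 7.47 on arrays 1, 2 and 3. The receptor genes Rara, Rarg and Rxra were at 5.99 ± 0.13, 6.41 ± 0.13 and 6.06 ± 0.09. Rarg missed the limit of array 1 alone, and Rara and Rxra missed those of arrays 1 and 2.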

How the data were processed

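RNA of sorted KLS SLAM cells was amplified and biotin-labelled for single-colour arrays, per the labels' protocols. Per the submitters' processing notes, RMA and Affymetrix Expression Console were used, and the authors deposited 1 intensity per probe set. Software versions, genome build and which arrays were normalised as a set are not stated in the labels. RMA makes array distributions alike, which removes array-wide differences in brightness. The deposited intensities were linear (2.82 to 18384) and log2 was taken with no pseudocount. Of 35554 probe sets, 21789 named 1 gene in the platform annotation, 1621 several and 12144 were not listed there. Log2 values of probe sets of 1 gene were averaged. All 37 Hox symbols matched the reference table by gene ID.

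The limit is the 95th percentile of 1217 receptor genes per array, with olfactory, vomeronasal and taste receptors chosen by symbol. For variation between arrays, the variance of each of 19938 genes over 3 arrays was set against a robust trend on mean level. The trend was fitted in limma 3.58.1 (R 4.3.3), and a one-sided F test was computed from that fit. Benjamini-Hochberg adjustment was over all genes with a threshold of 0.05, and the code was tested on simulated data. Precision is limited by the number of arrays. All Hox genes, flanking genes and measured non-coding genes were named. Of other lists, the first 3 measured genes were named, and the rarer side of the limit where it had 5 or fewer. Other names were given as picked afterwards. The cell type markers were named only in part and did not follow this rule throughout. Members and lists were chosen with earlier results of these data known.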

Additional observations from a re-analysis of the deposited data

How the results depend on the processing

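The count of Hox genes above the background range, 11 of 37, was 5 with the 99th percentile of the receptor genes, 5 with other ANTP homeobox genes as the limit (an alternative chosen after seeing the data) and 4 with keratin-associated protein, beta-defensin and placental prolactin-family genes. Under these 3 limits the count for Hoxa was 3, 3 and 3, for Hoxb 2, 2 and 1, for Hoxd 0, 0 and 0, for paralogues 1 to 3 it was 1, 1 and 0, for 4 to 8 it was 3, 3 and 3, and for 9 to 13 it was 1, 1 and 1. The Hoxc count of 0 was 1 with the 90th percentile, and 0 to 1 when 1 array was left out. The higher limits lower these counts by construction. Leaving out 1 array gave 11 to 14 Hox genes, 14 without array 1, and can only keep or raise the count. Quantile normalization gave the same 11 genes. The brightest probe set per gene also gave them, but it could move only the limits, since each Hox gene had 1 probe set. The count of Hox genes that vary between arrays was 0 under each of the 8 alternatives run for the F test, among them log2(value + 16). As 0 genes of the whole table passed in each of them, these counts of 0 do not show that the result is robust. In these, 0 or 1 Hox gene had an unadjusted p under 0.05 in the F test, beside 531 to 1156 of all genes tested. The alternative with 531 tested only genes above the limit on at least 1 array, 14 Hox genes among 11549. No paired analysis was possible because all samples are of 1 group. Signal over background limits what can be said of genes near the limit, such as Hoxd10 and Hoxc9.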

Other observations

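A probe set that the annotation assigns to both Hoxb7 and Hoxb8 was left out of all counts, since its signal cannot be given to either gene. It was at 5.04, 5.02 and 5.10 log2 on arrays 1, 2 and 3, below the limit of each array, whereas the probe set of Hoxb7 alone was above all 3 limits at 6.61 ± 0.14 (SD, n = 3).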
